A study of Mus musculus with 167 samples.

Results

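The genes described here are 41 genes of DNA replication and S phase, from the loading of the replicative helicase to nucleotide supply, repair and the packaging of new DNA. They were taken as a list of gene symbols and found among the 38924 gene rows of the table through their Ensembl identifiers. All 41 were present, and all 41 were among the 9224 genes called measured, those found at a TPM (an abundance per transcript length that adds up to 1 fixed sum per cell) of 1 or more in at least 10% of cells as the mean of both ages. The cells were lymphoid-primed multipotent progenitors (LMPPs), early blood progenitors that can still give rise to lymphocytes and to granulocytes and monocytes. They came from the bone marrow of wild-type female C57BL/6J mice of 4 or of 14 months, with no treatment given in the labels, and were sorted after lineage depletion as Sca-1+ c-Kit+ CD34+ cells with high Flt3 that lack lineage markers and CD150. Cells were captured one by one on a Fluidigm C1 chip, and the question of the comparison is how these progenitors differ with age.

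Each labelled sample is 1 cell and no animal is named, so each age counts as 1 sample: differences between ages have no replicate check, and no p-value or standard error was computed. A cell was kept when 1000 or more genes were at TPM 1 or more, the level called detected throughout. This left 64 of 84 columns at 4 months and 66 of 84 at 14 months, where the labels list 83 cells. The column headings split the 14-month cells into a set 4 (29 kept cells) and a set 5 (37 kept cells), a numbering that no label explains. No such number stands on the 4-month columns, so age and capture cannot be told apart.

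Replication is prepared in G1, when the MCM helicase is loaded on origins (licensing), and starts in S phase, when the helicase is activated and polymerases, clamp and clamp loader build the fork. Enzymes that make deoxynucleotides, factors that hold a stalled fork, and chaperones that bring histones to new DNA are switched on in the same window. Many of these genes are known targets of E2F transcription factors, which the retinoblastoma family holds in check until a cell commits to division. Stem and progenitor cells of the marrow differ in how often they enter S phase, and LMPPs are known as a more actively dividing stage than the stem cells upstream.

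Because the genes are known as E2F targets, their promoters were searched for the E2F words TTTCCCGC, TTTCGCGC, TTTGCCGC and TTTGGCGC on both strands of the RefSeq windows (build GRCm38.p6) from 250 bases before to 50 bases after each gene's start. RefSeq windows were at hand for 31 of the 41 genes. Mcm4, Gmnn, Gins2, Rfc2, Tipin, Dscc1, Exo1, Usp1, Atad2 and Ccne2 had no entry. At least 1 word lay in 12 of the 31 windows (38.7%), in 20 of 62 windows of other replication genes (32.3%), in 5.36% of the 6845 windows of measured genes and in 2.605% of all 27025 windows. Median GC content was 60% in the 31 windows and 60.8% in those of measured genes. The CCAAT box, searched in the same way on both strands, was found in 22 of 31 windows (71.0%) and in 43.6% of the windows of measured genes. The 12 genes with an E2F word were Mcm5, Mcm6, Cdc6, Pola1, Pold3, Clspn, Casp8ap2, Hells, Cdca7, Uhrf1, Dtl and Ubr7. These counts describe letters in a window and not binding. Of the 12, these 6 stretches are shown, 1 or 2 for each of 4 roles, to let the words be read in place. Each runs 5′ to 3′ on the gene's own strand, and capitals mark the words, which read as their reverse complement (GCGCCAAA, GCGCGAAA or GCGGGAAA) where they lie on the opposite strand.
Mcm6, helicase subunit, chr1:128359719-128359841, minus strand: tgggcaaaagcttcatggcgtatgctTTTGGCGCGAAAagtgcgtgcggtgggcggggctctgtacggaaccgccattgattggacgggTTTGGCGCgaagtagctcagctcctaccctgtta
Mcm5, helicase subunit, chr8:75109330-75109393, plus strand: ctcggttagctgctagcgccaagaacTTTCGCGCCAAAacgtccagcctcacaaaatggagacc
Pola1, catalytic subunit of polymerase alpha, chrX:93632260-93632319, minus strand: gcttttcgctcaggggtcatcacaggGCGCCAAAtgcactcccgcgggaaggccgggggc
Casp8ap2, histone gene expression, chr4:32615268-32615327, plus strand: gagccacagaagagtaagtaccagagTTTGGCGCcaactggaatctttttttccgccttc
Cdca7, chromatin remodelling, chr2:72476122-72476181, plus strand: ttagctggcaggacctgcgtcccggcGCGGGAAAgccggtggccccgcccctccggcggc
Dtl, degradation of licensing factors, chr1:191575519-191575578, minus strand: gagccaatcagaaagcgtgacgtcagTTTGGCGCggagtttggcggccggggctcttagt

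In Mcm5 and Mcm6, words on the 2 strands overlap by 4 bases, so that 12 capitals stand together. Mcm6 holds another word, which begins 47 bases before the RefSeq start of the gene. The word of Dtl begins 8 bases before the RefSeq start of Dtl, and that of Casp8ap2 176 bases before the RefSeq start of Casp8ap2. Gene coordinates given below are those of GENCODE, in which the start can lie elsewhere.

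Cells of 4 months had a median of 3974.5 genes detected and cells of 14 months 3281, and 77.0% of all measured genes had a lower mean at 14 months. Differences are therefore given as the mean log2(TPM+1) at 14 months minus that at 4 months, less the median of that difference over the measured genes (-0.36, with -0.43 in set 4 and -0.34 in set 5). A relative difference of 0 is thus the difference of the median gene, not equal levels. Gate genes were detected at both ages, but not in every cell. The younger and older shares were 100 and 92.4% for Flt3 and 89.1 and 87.9% for Cd34. For Kit they were 67.2 and 53.0% (set 4 44.8%, set 5 59.5%), and for Ly6a 39.1 and 37.9%. Of the genes selected against, Slamf1, Ly6g and Cd3e had 0 TPM throughout. The fourth, Itgam, was at TPM 1 or more in 68.8% of cells at 4 months and 25.8% at 14 months, with medians of 1.72 and 0.555 TPM on either side of that level. Of the erythroid markers, Gata1 was at 0, while Hbb-bt was found in 12.5 and 10.6% of cells and Hba-a1 in 7.81 and 10.6%, with summed levels of at most 1150 and 2232 TPM. The summed B cell markers (5 genes, 2 of them at 0) had medians of 0 TPM at both ages and reached 1378 and 971 TPM, and Cd79b was found in 39.1 and 24.2% of cells. The summed mature myeloid markers (5 genes, 1 of them at 0) ranged from 0 to 1445 TPM at 4 months and from 0 to 364930 TPM at 14 months, with medians of 111 and 47.9 TPM. Camp, at 0 in each 4-month cell, was found in 5 cells of set 5. Lyz2 was found in 64.1% of cells at 4 months and 56.1% at 14 months, S100a8 in 4.69 and 10.6%, and S100a9 in 1.56 and 4.55%. Summed megakaryocyte markers (4 genes, 1 of them at 0) had medians of 0 TPM at both ages and reached 316 and 634 TPM. Summed mast cell markers (3 genes, 2 of them at 0) also had medians of 0 TPM and reached 282 and 309 TPM. The summed T and NK cell markers (5 genes, 1 of them at 0) had medians of 19.8 and 162 TPM; Nkg7 was found in 54.7 and 72.7% of cells, and each of the others in at most 2 cells of an age. Their part in the differences given here was not tested.

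The order of level among the 41 genes was similar at both ages, with exceptions. Across the genes, the rank correlation of mean log2(TPM+1) between 4 and 14 months was 0.91, and that of the share of cells was 0.92. Prim1 stood at place 25 at 4 months and 12 at 14 months, Atad2 at 11 and 25, and Pola1 at 13 and 23. Pcna, the sliding clamp that holds polymerases on DNA, had the highest mean at both ages. Slbp, which binds the stem-loop of histone mRNAs, Nasp, a histone H3-H4 chaperone, and Tyms, which makes thymidylate, took the next 3 places at 4 months. At 14 months the same 3 genes filled places 2 to 4. The lowest means were those of Cenpu, a centromere protein, at 4 months (0.56) and of Dscc1, which helps load the clamp for cohesion, at 14 months (0.58). TPM is scaled by transcript length, so these levels can be set side by side. Shares of cells ran from 14.1 to 96.9% at 4 months and from 10.6 to 89.4% at 14 months, with medians over the genes of 43.8 and 39.4%. The medians over all measured genes were 34.4 and 24.2%. Shares are given with their exact (Clopper-Pearson) 95% interval after a semicolon, which covers counting error only. In each group the lowest value of each of the 41 genes was 0 TPM, so even Pcna was missing from some cells.

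**Figure D1:**
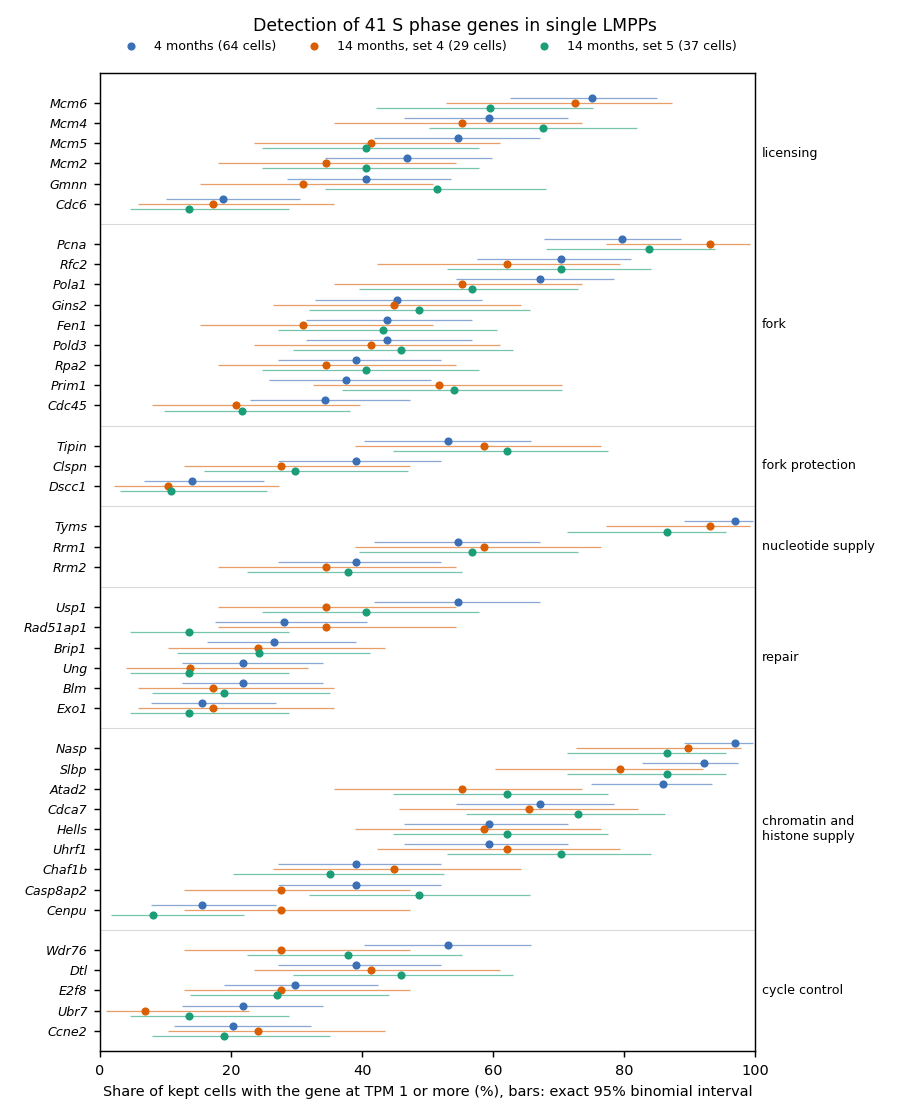
Share of kept cells (x axis, %) with each of 41 S phase genes at TPM 1 or more, by role, for 64 cells of 4 months and for the 29 and 37 cells of the 14-month sets; points are shares and bars exact 95% binomial intervals. Tyms, Nasp, Slbp and Pcna were found in 79.3% or more of the cells of each group, and Atad2 in 85.9% of cells at 4 months, 55.2% in set 4 and 62.2% in set 5.

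Compared with the median gene, the replication genes lay slightly higher at 14 months. Their median relative difference was 0.15 (set 4 0.24, set 5 0.21). Of the 41 genes, 26 lay above the median gene. In both sets 22 lay above it (53.7%, against 34.3% of all measured genes) and 10 below it (24.4%, against 34.3%). Without that correction, 25 of the 41 had a lower mean at 14 months (61.0%, against 77.0% of all measured genes). Prim1 and Tipin were the 2 genes with a relative difference of 1 or more, a bound that 3.37% of measured genes passed. None was at -1 or less, which 5.08% of measured genes were. The exact intervals of the shares of cells were apart for Atad2, lower at 14 months, where 8.16% of measured genes had this, and for no gene in the other direction, where 0.0867% of measured genes had it. The direction of the median rested on the setting: over the 13 alternatives tried it ran from -0.089, with no filter on low values, to 0.61, in cells matched on genes detected. A cell of set 4 and a cell of set 5 had closely similar values for most of the 41 genes. Their log2(TPM+1) was 7.83 and 7.71 for Cdc6 and 6.84 and 7.16 for Ung, with 32 and 30 of the 41 genes detected. Both were counted as separate cells, and whether they are was not tested.

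**Figure D2:**
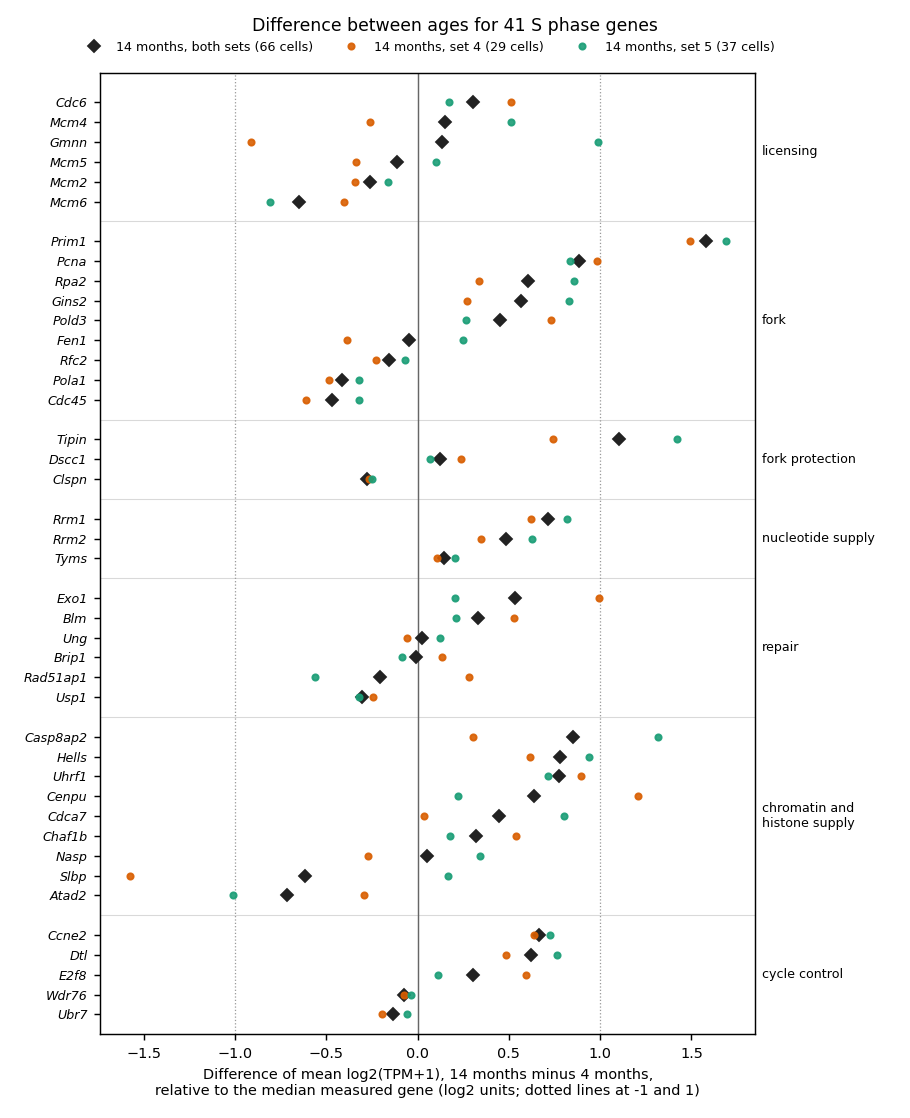
Relative difference (x axis, log2 units, 14 months minus 4 months less the median measured gene) of 41 S phase genes by role; diamonds are all 66 cells of 14 months, circles the sets, dotted lines the bounds of -1 and 1. Prim1 (1.58) and Tipin (1.10) lie past the bound, and the sets lie on opposite sides of 0 for 9 genes.

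Licensing genes lay near the median gene, with a median relative difference of 0.01 over 6 genes (-0.34 in set 4, 0.14 in set 5). Mcm6, a subunit of the MCM helicase (chromosome 1, 128331590 to 128359664), was the most widely detected, in 48 of 64 cells at 4 months (75.0%; 62.6 to 85.0%) and 43 of 66 at 14 months (65.2%; 52.4 to 76.5%). Its median was 37.9 TPM and its highest value 1056 TPM at 4 months, and 12.4 and 1255 TPM at 14 months. On the log2(TPM+1) scale the means were 4.71 (SD over cells 3.47) and 3.71 (SD 3.26), which made Mcm6 the second lowest gene of the list at -0.65. It was below the median gene in set 4 (-0.40) and in set 5 (-0.81), and the ranges of single cells overlapped throughout. In cells matched on genes detected the value was 0.02.

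The other helicase subunits in the list, Mcm4, Mcm5 and Mcm2, had relative differences of 0.15, -0.11 and -0.26. Mcm4 was found in 59.4% of cells at 4 months and 62.1% at 14 months, Mcm5 in 54.7 and 40.9%, and Mcm2 in 46.9 and 37.9%. All 4 subunits were detected together in 19 of 64 cells at 4 months (29.7%; 18.9 to 42.4%) and 14 of 66 at 14 months (21.2%; 12.1 to 33.0%). None of the 4 was found in 3 cells at 4 months and in 10 at 14 months, of which 5 were in each set. The helicase acts as 1 ring, yet most cells had only some of these 4 subunits above the detection level. Its subunits Mcm3 and Mcm7 are not in the list and were not part of these counts. Among the other replication genes, Mcm3 lay at 0.48 and was found in 60.9% of cells at 4 months and 63.6% at 14 months. Mcm7 lay at 0.54, with 64.1 and 66.7%. Gmnn, geminin, which blocks relicensing until mitosis, was at 0.13, and its sets were on opposite sides, at -0.91 in set 4 and 0.99 in set 5. It was found in 31.0% of set 4 cells, 51.4% of set 5 cells and 40.6% of 4-month cells. Cdc6, which loads the helicase, was found in 18.8 and 15.2% of cells and lay at 0.30.

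Among fork genes the median relative difference was 0.45 over 9 genes, and 5 lay above the median gene in both sets. Pcna (chromosome 2, 132249162 to 132253314) was found in 51 of 64 cells at 4 months (79.7%; 67.8 to 88.7%) and 58 of 66 at 14 months (87.9%; 77.5 to 94.6%). Its median was 167 TPM and its highest value 1264 TPM at 4 months, against 266 and 1572 TPM at 14 months. The mean log2(TPM+1) was 5.96 (SD 3.55) and 6.49 (SD 3.39), a relative difference of 0.88. Both sets were higher than the 4-month cells in median, with 270 TPM in set 4 and 263 TPM in set 5, while the ranges of single cells overlapped throughout. The pseudogene Pcna-ps2, a near copy that could share its reads, was found in 3 cells of 4 months and in none of 14 months, and Pcna-ps1 was listed at 0 in all.

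Prim1, the catalytic subunit of primase, which lays the RNA primer of each new strand (chromosome 10, 128015168 to 128030037), had the highest relative difference, 1.58. It was found in 24 of 64 cells at 4 months (37.5%; 25.7 to 50.5%) and 35 of 66 at 14 months (53.0%; 40.3 to 65.4%). Its median was 0 TPM and its highest value 544 TPM at 4 months, and 5.2 and 796 TPM at 14 months. On the log2(TPM+1) scale the means were 2.17 (SD 2.97) and 3.40 (SD 3.48). Both sets lay past the bound, at 1.49 in set 4 and 1.69 in set 5, with means of 3.24 (SD 3.54) and 3.52 (SD 3.48). Prim1 ranked 53 from the top among the 9224 measured genes. Its value was 1 or more in 12 of 13 alternatives and 0.87 in the other, with a pseudocount of 10.

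Prim1 works in 1 complex with Pola1, the catalytic subunit of polymerase alpha, whose relative difference had the other sign. Pola1 was at -0.41, found in 67.2% of cells at 4 months and 56.1% at 14 months. In cells matched on genes detected it was at 0.37, on the same side as Prim1, and found in 56.8 and 68.2% of cells. Cells with Pola1 alone numbered 25 of 64 at 4 months and 10 of 66 at 14 months, cells with both 18 and 27, and cells with Prim1 alone 6 and 8. At 14 months the cells with both were thus more numerous than those with Pola1 alone, and at 4 months fewer.

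Of the remaining fork genes, Rpa2, of the single-strand binding protein RPA, lay at 0.61, Gins2, of the GINS complex of the active helicase, at 0.56, and Pold3, a polymerase delta subunit, at 0.45. Fen1, the flap endonuclease that trims lagging-strand primers, lay at -0.05, Rfc2, of the clamp loader, at -0.16, and Cdc45, the helicase cofactor, at -0.47. Cdc45 was found in 34.4% of cells at 4 months and 21.2% at 14 months. Rfc2 was found in 70.3 and 66.7% of cells and the others of this group in 37.9 to 47.0%.

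**Figure D3:**
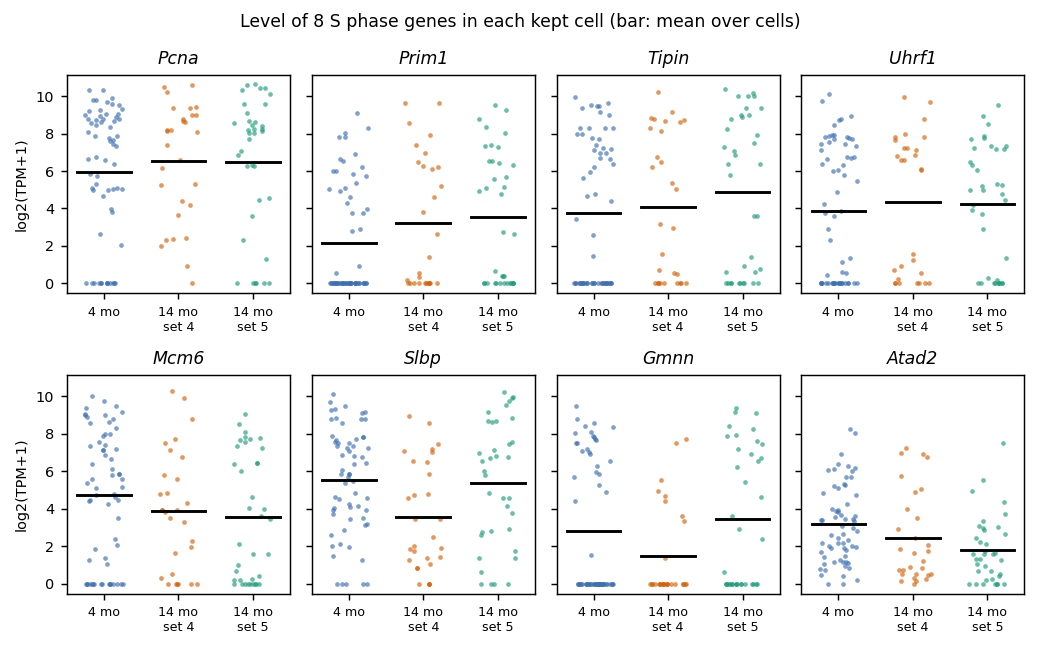
log2(TPM+1) (y axis) of 8 S phase genes in each kept cell of 4 months and of the 14-month sets; each point is a cell and bars are means over cells. Each gene has cells at 0 in every group, and the ranges of the groups overlap for all 8 genes; Slbp and Gmnn have lower means in set 4 than in set 5.

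The 3 fork protection genes did not share a direction. Tipin, partner of Timeless in the complex that keeps helicase and polymerase together (chromosome 9, 64281581 to 64305424), had a relative difference of 1.10, the second highest. It was found in 34 of 64 cells at 4 months (53.1%; 40.2 to 65.7%) and 40 of 66 at 14 months (60.6%; 47.8 to 72.4%). Its median was 7.39 TPM and its highest value 998 TPM at 4 months, against 35.6 and 1332 TPM at 14 months. The mean log2(TPM+1) was 3.78 (SD 3.88) and 4.53 (SD 4.00). Set 5 lay past the bound at 1.42 and set 4 did not, at 0.74. The median was 7.98 TPM in set 4, close to that at 4 months, and 81.3 TPM in set 5. Clspn, claspin, which passes the stalled-fork signal to the checkpoint kinase Chk1, lay at -0.28 (39.1 and 28.8% of cells), and Dscc1 lay at 0.12 (14.1 and 10.6%).

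The 3 genes of nucleotide supply all lay above the median gene in both sets, with a median of 0.49. Tyms, thymidylate synthase (chromosome 5, 30058202 to 30073617), was found in 62 of 64 cells at 4 months (96.9%; 89.2 to 99.6%) and 59 of 66 at 14 months (89.4%; 79.4 to 95.6%), with 93.1% in set 4 and 86.5% in set 5. Its median was 35.2 TPM and its highest value 1076 TPM at 4 months, and 21.9 and 960 TPM at 14 months. On the log2(TPM+1) scale the means were 5.12 (SD 2.62) and 4.91 (SD 3.13), a relative difference of 0.14. Nearly every cell thus had Tyms transcripts, in contrast to Rrm1 and Rrm2, the large and small subunits of ribonucleotide reductase. Rrm1 was found in 54.7% of cells at 4 months and 57.6% at 14 months (relative difference 0.71), and Rrm2 in 39.1 and 36.4% (0.49). Rrm2 was almost nested within Rrm1: 22 cells at 4 months and 24 at 14 months had both, 13 and 14 had Rrm1 alone, and 3 and 0 had Rrm2 alone.

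Repair genes were the least often detected role, with a median share of 24.2% at 4 months and 20.5% at 14 months. All 6 had a lower share at 14 months, as 81.4% of all measured genes did, and in cells matched on genes detected 5 of the 6 had a higher one. Their median relative difference was 0.01. Usp1, the deubiquitinase that acts on PCNA and FANCD2 (chromosome 4, 98923810 to 98935543), was the most widely detected, in 35 of 64 cells at 4 months (54.7%; 41.7 to 67.2%) and 25 of 66 at 14 months (37.9%; 26.2 to 50.7%). Its shares were 34.5% in set 4 and 40.5% in set 5. Its median was 3.86 TPM and its highest value 516 TPM at 4 months, against 0 and 1565 TPM at 14 months. The mean log2(TPM+1) was 2.77 (SD 2.90) and 2.11 (SD 2.96), a relative difference of -0.30. Exo1, the exonuclease of mismatch repair and end resection, lay at 0.53, Blm, the Bloom helicase, at 0.33, Ung, which removes uracil, at 0.02, Brip1, a Fanconi anaemia helicase, at -0.01 and Rad51ap1, a recombination factor, at -0.21. Rad51ap1 was found in 34.5% of set 4 cells and 13.5% of set 5 cells, and Exo1 lay at 0.99 in set 4 and 0.20 in set 5.

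Chromatin and histone supply ranged from the lowest gene of the list, Atad2, to Casp8ap2 at 0.85, with a median of 0.45 over 9 genes. Nasp (chromosome 4, 116601052 to 116627941) was found in 62 of 64 cells at 4 months (96.9%; 89.2 to 99.6%) and 58 of 66 at 14 months (87.9%; 77.5 to 94.6%), with 89.7% in set 4 and 86.5% in set 5. Its median was 32.8 TPM and its highest value 1135 TPM at 4 months, and 24.6 and 814 TPM at 14 months. On the log2(TPM+1) scale the means were 5.15 (SD 2.29) and 4.84 (SD 3.08), a relative difference of 0.05.

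Atad2, an ATPase with a bromodomain that binds acetylated histones (chromosome 15, 58094044 to 58135082), was the lowest gene of the list, at -0.71, and the gene whose share intervals were apart. It was found in 55 of 64 cells at 4 months (85.9%; 75.0 to 93.4%) and 39 of 66 at 14 months (59.1%; 46.3 to 71.0%), with 55.2% in set 4 and 62.2% in set 5. Its median was 6.45 TPM and its highest value 301 TPM at 4 months, and 1.96 and 179 TPM at 14 months. The mean log2(TPM+1) was 3.17 (SD 2.07) and 2.10 (SD 2.09). Both sets were below the 4-month cells, by -0.29 and -1.01 relative to the median gene. Its median at 14 months lies close to the detection level, and the intervals overlapped when a gene was called detected at TPM above 0 or at TPM 5 or more, in cells matched on genes detected, in cells with 2000 or more genes, with all columns and with set 5 alone.

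Above the median gene in both sets were Casp8ap2, which acts in histone gene expression (0.85), Hells, a chromatin remodeller (0.78), its activator Cdca7 (0.45), Uhrf1, which reads hemimethylated DNA behind the fork (0.78), Cenpu (0.64) and Chaf1b, of the assembly factor CAF-1 (0.32). Uhrf1 was found in 59.4% of cells at 4 months and 66.7% at 14 months, Hells in 59.4 and 60.6%, and Cdca7 in 67.2 and 69.7%. Casp8ap2 lay at 0.30 in set 4 and 1.32 in set 5, and Cenpu at 1.21 and 0.22. Slbp had the widest gap between the sets among these 9 genes, at -1.58 in set 4 and 0.17 in set 5, and -0.62 over both. Its median was 57 TPM at 4 months, 4.6 TPM in set 4 and 63.2 TPM in set 5, so that set 5 resembled the 4-month cells and set 4 lay lower.

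Of the cycle control genes, Wdr76, a WD repeat protein (chromosome 2, 121506723 to 121544860), had the highest mean share of the ages. It was found in 34 of 64 cells at 4 months (53.1%; 40.2 to 65.7%) and 22 of 66 at 14 months (33.3%; 22.2 to 46.0%), with 27.6% in set 4 and 37.8% in set 5. Its median was 1.62 TPM and its highest value 154 TPM at 4 months, and 0 and 211 TPM at 14 months. On the log2(TPM+1) scale the means were 1.85 (SD 2.10) and 1.42 (SD 2.24), a relative difference of -0.07. Ccne2, cyclin E2, which drives entry into S phase, lay at 0.67, Dtl, the substrate receptor that has the licensing factor Cdt1 destroyed at the fork, at 0.62, and E2f8, a repressor of the E2F family, at 0.31. Ubr7 lay at -0.14 and was found in 21.9% of cells at 4 months and 10.6% at 14 months. Dtl was the most widely detected of these genes at 14 months, in 43.9% of cells, and was found in 39.1% at 4 months. Ccne2, Dtl and E2f8 were above the median gene in both sets.

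Cells of 1 age differed widely. At 4 months a cell had a median of 15.5 of the 41 genes (37.8%, quartiles 11 and 30.25, range 6 to 40), and at 14 months 19 (46.3%, quartiles 10 and 24.75, range 2 to 34), with 19 in each set. At 4 months 8 of 64 cells held 0 to 9 of the genes, 29 held 10 to 19, 10 held 20 to 29 and 17 held 30 or more. At 14 months these numbers were 16, 18, 24 and 8 of 66, so both the lowest and the third class held more cells than at 4 months. Cells with 20 or more thus made up 42.2% at 4 months (29.9 to 55.2%) and 48.5% at 14 months (36.0 to 61.1%). Those with 30 or more made up 26.6% (16.3 to 39.1%) and 12.1% (5.38 to 22.5%). The number of S phase genes moved with the number of all genes detected in the cell, with a rank correlation of 0.82 across the 64 cells and 0.85 across the 66. The mitochondrial share of TPM gave -0.36 and -0.02.

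**Figure D4:**
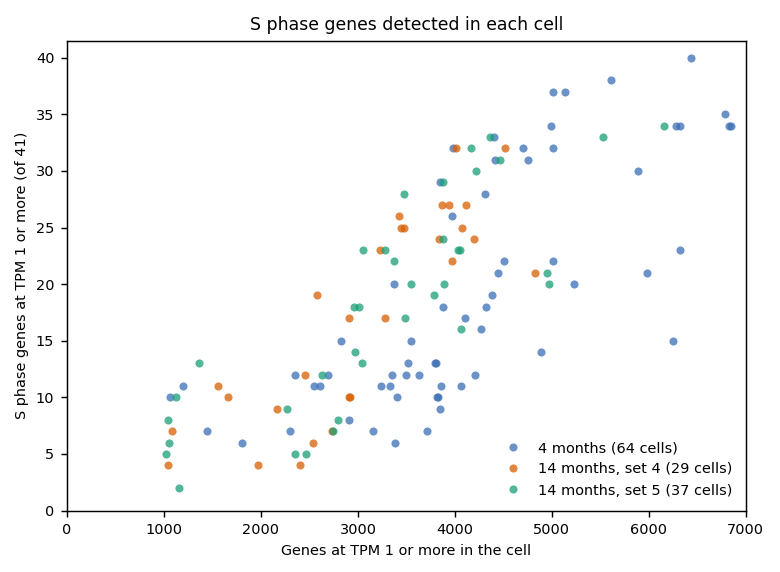
Number of the 41 S phase genes at TPM 1 or more (y axis) against the number of all genes at that level (x axis) in each kept cell; blue points are 64 cells of 4 months, orange and green the 29 and 37 cells of the 14-month sets. Between 3000 and 3999 genes the 4-month cells had a median of 12 S phase genes and the 14-month cells 23.

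At a like number of genes detected, the 14-month cells held more S phase genes in the middle of the range. Among cells with 3000 to 3999 genes, the median was 12 in 22 cells of 4 months (6 to 32) and 23 in 21 cells of 14 months (13 to 29), with 25 in set 4 and 21 in set 5. With 4000 to 4999 genes it was 21 and 25, in 15 cells of each age. With 2000 to 2999 genes the order was the other way, 11 in 7 cells and 9 in 17, and so it was with 1000 to 1999 genes, 8.5 in 4 cells and 7 in 11. At 4 months the median was 31 in 8 cells with 5000 to 5999 genes and 34 in 8 cells with 6000 to 6999. At 14 months each of these bins held 1 cell, with 33 and 34, so the ages cannot be compared there. Of the 37 cells of 4 months with 3000 to 4999 genes, 4 held 0 to 9 of the S phase genes, 21 held 10 to 19, 6 held 20 to 29 and 6 held 30 or more. Of the 36 cells of 14 months, the numbers were 0, 6, 24 and 6. Cells of 4 months were thus mostly in the second class of this split and cells of 14 months mostly in the third, in set 4 (12 of 15) and in set 5 (12 of 21) alike. This split was chosen after the cells were plotted.

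The differences of single genes moved with this matching too. In 44 cells of each age taken evenly from bins of 500 genes (median genes detected 3759 and 3847), 40 of the 41 genes were measured, with a median relative difference of 0.61, and 35 lay above the median gene. Of the 15 genes below it over all kept cells, 11 lay above it here, and Cdc45, Clspn, Atad2 and Ubr7 did not. A relative difference of 1 or more was found for 9 of the 40, where 9.77% of all genes measured in these cells had it. A higher share with intervals apart was found for 3, Prim1, Rrm1 and Uhrf1, where 1.09% of genes had it. Prim1 was found in 25.0% of the matched cells of 4 months (13.2 to 40.3%) and 68.2% of those of 14 months (52.4 to 81.4%), Rrm1 in 38.6% (24.4 to 54.5%) and 72.7% (57.2 to 85.0%), and Uhrf1 in 50.0% (34.6 to 65.4%) and 81.8% (67.3 to 91.8%). Over all kept cells the median of genes detected was 3974.5 at 4 months and 3281 at 14 months. Matching thus left out many gene-rich cells of 4 months and many gene-poor cells of 14 months, so the matched cells stand for different parts of the 2 ages. The 44 cells are 1 such choice, and other choices were not drawn.

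The genes varied together from cell to cell. Between the 34 of them detected in at least 20% of cells of each age, the median rank correlation over 561 pairs was 0.35 at 4 months and 0.30 at 14 months, against 0.11 and 0.11 over all pairs of 5324 genes so detected. Every pair was positive at 4 months and 548 were at 14 months. With the number of genes detected in the cell taken out of the ranks, the medians were 0.17 and 0.10, against 0.01 and 0.01. The closest pair by the mean of the ages was Rrm1 with Rrm2 (0.71 and 0.61), ahead of Mcm4 with Uhrf1 (0.63 and 0.57) and Hells with Uhrf1 (0.52 and 0.59). The last of the 561 pairs by the mean of the ages was Gmnn with Usp1 (0.23 and -0.18).

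**Figure D5:**
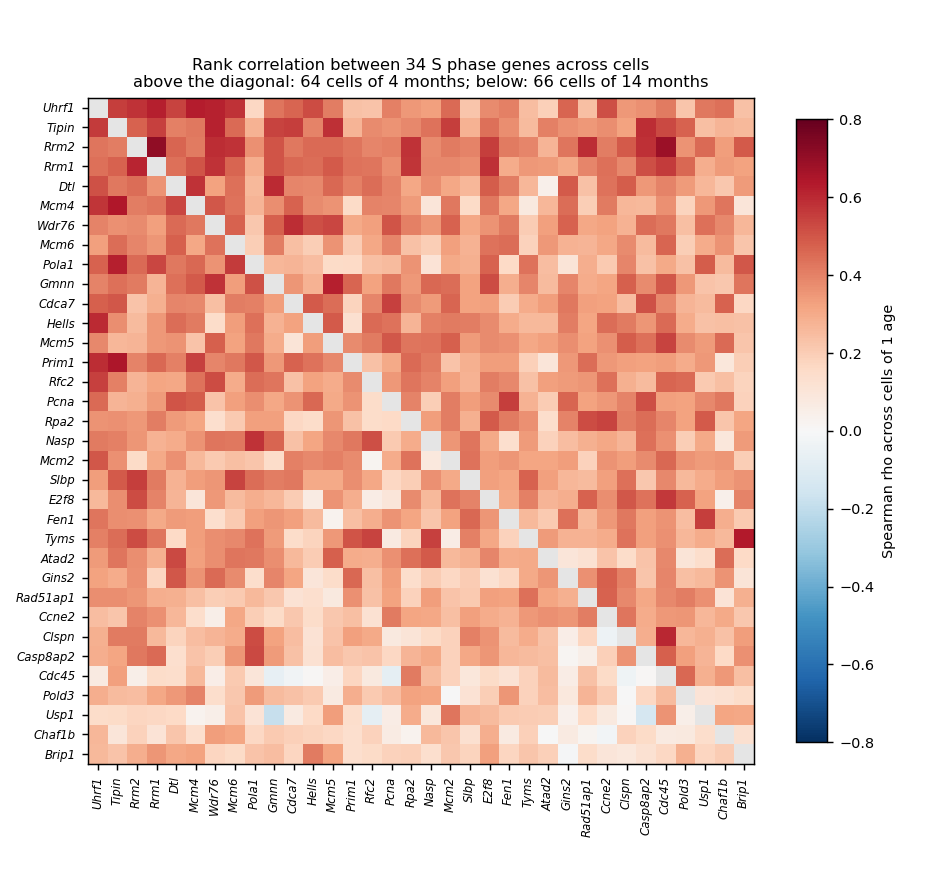
Spearman rank correlation (colour) of log2(TPM+1) across cells for each pair of 34 S phase genes, above the diagonal for 64 cells of 4 months and below it for 66 cells of 14 months, ordered by the mean correlation with the score over all 41 genes. Rrm1 with Rrm2 (0.71 and 0.61) is the closest pair by the mean of the ages, and Usp1, Chaf1b and Brip1 stand last in the order.

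Set against the mean log2(TPM+1) of all 41 genes in the cell, which includes the gene itself, Uhrf1 had the highest rank correlation as a mean of the ages (0.73), followed by Tipin (0.72), Rrm2 (0.69), Rrm1 (0.66), Dtl (0.65) and Mcm4 (0.65). Usp1 (0.42), Chaf1b (0.41) and Brip1 (0.39) were last. Atad2 and Nasp, found in most cells, lay at 0.53 and 0.57. Pola1 stood at 0.49 at 4 months and 0.74 at 14 months, and Prim1 at 0.45 and 0.71, while Cdc45 went the other way, from 0.66 to 0.29.

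Genes outside the list with the most similar pattern were Stmn1, stathmin, a microtubule destabiliser (mean rank correlation over the ages 0.71), Tuba1b, an alpha tubulin (0.70), Nme1, a nucleoside diphosphate kinase (0.66), and Ran, the GTPase of nuclear transport (0.66). They were followed by Syce2 (0.65), Nup85, of the nuclear pore (0.65), Cenps, of the centromere (0.63), Slc43a3 (0.63), the histone variant gene H2afz (0.63), Usp37 (0.61), Pmf1, of the kinetochore (0.61), and Tubb5, a beta tubulin (0.61). These were taken over 64 and 66 cells from 5290 genes, leaving out predicted genes, pseudogenes and the other replication genes. With the number of genes detected taken out, Cenps ranked 1 (0.53), Nup85 ranked 6 and Tuba1b ranked 7, while Ran ranked 62. H2afz and Slc43a3 had relative differences of 2.27 and 1.47, and Tubb5 and Tuba1b of -0.21 and -0.04. Of 50 other replication genes that could be ranked, 14 were among the first 100 of the 5290 genes and 10 among the first 50, and of 43 genes of G2 and mitosis 7 and 4. In each cell the number of S phase genes and of G2 and mitosis genes had a rank correlation of 0.78 at 4 months and 0.66 at 14 months, and of 0.34 and 0.06 with the number of genes detected taken out.

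A wider list of 71 other replication genes, of which 67 were measured, had a median relative difference of 0.18 (set 4 0.26, set 5 0.28). Relative differences of 1 or more were found for 7 of the 67 (3.37% of all measured genes) and of -1 or less for 3 (5.08%). Shares were lower at 14 months with intervals apart for 5 (8.16%) and higher for none (0.0867%). The highest were Chek1, the checkpoint kinase downstream of claspin (1.56), Rfc4, of the clamp loader (1.48), and Pole4, of polymerase epsilon (1.38). Chek1 was found in 34.4% of cells at 4 months and 40.9% at 14 months, Rfc4 in 40.6 and 51.5%, and Pole4 in 46.9 and 53.0%. All 3 were above the median gene in both sets, at 0.98 and 2.04 for Chek1. The lowest were Dbf4, the activator of the Cdc7 kinase that fires origins (-2.12), Pola2, the B subunit of polymerase alpha (-1.35), and Cdk2, the kinase partner of cyclin E (-1.26). Dbf4 was found in 100% of cells at 4 months (94.4 to 100%) and 90.9% at 14 months (81.3 to 96.6%), with a mean log2(TPM+1) of 5.67 (SD 1.09) and 3.20 (SD 1.75). Cdk2 was found in 57.8% (44.8 to 70.1%) and 16.7% (8.62 to 27.9%), and its partner Ccne2 in 20.3 and 21.2%. Pola2 was found in 96.9% (89.2 to 99.6%) and 75.8% (63.6 to 85.5%). Dbf4 and Pola2 hardly followed the mean log2(TPM+1) of the 41 genes across cells. Their rank correlations with it, as a mean of the ages, were 0.02 and 0.12. Those of Rfc4, Chek1 and Pole4 were 0.66, 0.40 and 0.35, and the median over the 50 other replication genes ranked was 0.45. Of the 4 subunits of the polymerase alpha and primase complex, Pola2 and Pola1 lay below the median gene, Prim2 at 0.10 and Prim1 at 1.58, and Pola1 lay above it in the matched cells.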

How the data were processed

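Single LMPPs were profiled by RNA sequencing, 1 cell per labelled sample. The authors deposited 1 table of TPM values, in which the sum of each column is 1000000; depth is unknown, and genes detected per cell are given in its place. The build mm10 and the tools RSEM 1.2.12 and Bowtie2 2.2.0 are named, with no role given, per the submitters' processing notes. The sources used here do not say whether counting used strand, and 14 of the 41 genes overlap another gene of the table. Symbols matched 37607 of 38924 identifiers, and gene coordinates are those of GENCODE M21 (build mm10). Columns of the table were assigned to ages by their headings, and no column was left unused for lack of a label.

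Of 168 columns, 38 were left out for having under 1000 genes at TPM 1 or more. Means and SDs over cells were taken of log2(TPM+1), which understates changes of low genes. Intervals are exact (Clopper-Pearson) 95% binomial intervals and cover counting error only. The cells of an age may come from 1 or several animals. No doublet caller was run, since it needs counts. Correlations are Spearman's, across cells of 1 age that may share a chip and that differ in genes detected, and have no p-value. No test across genes was made. The design assumed TPM and fitted the file.

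The genes, their classes, the other replication genes and the markers were chosen with earlier results of these data known. Full values are given for the most widely detected gene of each class, each gene 1 or more from the median gene, each gene with intervals apart, and the 2 highest and 2 lowest relative differences. Of the other replication genes the 3 highest and 3 lowest are given, and the 12 genes most like the list's mean. Other genes are named by their class. The scripts were tested on simulated data. The tools were matplotlib 3.10.9, scipy 1.17.1, pandas 2.3.3 and numpy 2.4.6 in Python 3.11.15.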

Additional observations from a re-analysis of the deposited data

Results flagged for a closer look

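The columns left out for having fewer than 1000 genes held some of the replication genes. At least 1 of the 41 was at TPM 1 or more in 33 of the 38 left-out columns (86.8%, interval 71.9 to 95.6%). No share of other genes in these columns was taken, so this describes the columns and not the genes. The median was 3 genes and the highest 10. Pcna and Tyms were found in 13 of these columns each, and Nasp in 7. By group, 17 of 20 left-out columns of 4 months held at least 1 of the genes, 14 of 16 of set 4 and 2 of 2 of set 5.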

How the results depend on the processing

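No paired analysis was possible because the numbers in the labels name cells, and the columns carry no number that pairs cells of different ages. The median relative difference of the 41 genes (0.15) was 0.42 with a pseudocount of 0.1, 0.12 with 10, 0 with the median over cells in place of the mean, -0.089 with no filter on low values, 0.29 for genes in at least 30% of cells, 0.28 after quantile normalization, 0.22 without mitochondrial transcripts, 0.34 in columns with 2000 or more genes, 0.25 with all columns, 0.61 in matched cells, 0.24 with set 4 alone and 0.21 with set 5 alone. Genes at 1 or more (2) numbered 9, 0, 4 and 1 in the first 4 of these, 4 after quantile normalization and 9 in matched cells. They numbered 3 without mitochondrial transcripts, in columns with 2000 or more genes and with set 5 alone. With set 4 alone there were 2, Prim1 (1.49) and Cenpu (1.21), and Tipin was not among them. Genes at -1 or less (0) numbered 1 with a pseudocount of 0.1, 7 with the median over cells and 1 with either set alone. The median number of the 41 genes detected in a cell (15.5 at 4 months, 19 at 14 months) also moved. It was 17 and 20 without mitochondrial transcripts and 17.5 and 21 in columns with 2000 or more genes. With all columns it was 12 and 13, and in matched cells 12 and 22.5. The lower share of Atad2 had intervals apart in 0 genes with 2000 or more genes, all columns, matched cells, set 5 alone, TPM above 0 and TPM 5 or more; in matched cells 3 genes had a higher share with intervals apart. The median correlation between the genes (0.35 at 4 months, 0.30 at 14 months) was 0.34 and 0.28 without mitochondrial transcripts, 0.34 and 0.26 with 2000 or more genes, 0.43 and 0.35 with all columns, 0.30 and 0.25 in matched cells, 0.17 and 0.10 after genes detected, and at 14 months 0.28 in set 4 and 0.29 in set 5. A choice made after seeing the data left out 8 cells. These had over 50% of TPM in mitochondrial transcripts or over 200000 TPM in 1 gene. Without them the median relative difference was 0.28 and the 14-month correlation 0.28, with 2 genes, Prim1 and Tipin, at 1 or more. Of the 41 genes, 11 kept their sign in all 13 alternatives, 10 above and Atad2 below the median gene. A value of exactly 0 was counted as a sign not kept. Some genes outside the 11 therefore never changed sides, such as Blm (0 to 0.67) and Cdc45 (-0.71 to 0). Tipin was at 1 or more in 10 of the 13 alternatives (0.61 to 2.18). The cause of these shifts was not tested. With 64 and 66 cells, the printed intervals show how loosely each share is known, and their overlap or lack of it is not a test of a difference. No smallest detectable difference was computed. Values of 1 cell per library cannot show what differs between animals.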

Other observations

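Pairs of genes whose proteins act together were not always found in the same cells. Hells and Cdca7, which form 1 remodeller, were both detected in 32 of 64 cells at 4 months and 32 of 66 at 14 months, Hells alone in 6 and 8 and Cdca7 alone in 11 and 14. Cdc45 and Gins2, which join the helicase when it is activated, were both found in 14 cells at 4 months and 8 at 14 months, and Gins2 alone in 15 and 23. Tipin and Clspn, which bind at the fork, were both found in 18 cells of each age, Tipin alone in 16 and 22, and Clspn alone in 7 and 1. A gene absent from a cell in these counts was below TPM 1 there, which does not show that the cell lacks its transcripts.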
